A study of Mus musculus with 6 samples.

Results

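The 7 genes described here belong to antigen presentation by major histocompatibility complex (MHC) class II. They are the chain genes H2-Aa, H2-Ab1 and H2-Eb1, the invariant chain gene Cd74, the peptide exchange factor gene H2-DMa, the lysosomal thiol reductase gene Ifi30 and the transactivator gene Ciita. They were chosen by name, with earlier results of these data known. Each was read through the probe sets whose array annotation gives that symbol alone, and all 7 were found among 18194 genes. The tissue was the subventricular zone (SVZ), a germinal layer beside the lateral ventricles, in adult C57BL/6 males. In the injured group, 3 arrays, the middle cerebral artery had been occluded (MCAO, a stroke model) and the SVZ on the side of the lesion was taken 48 h later. The controls, also 3 arrays, were mice given sham surgery and sampled at the same 48 h. No allele, transgene or drug is named for either group, and the labels do not say whether each array held a separate mouse, so p-values measure only how these arrays vary, and that variation may be technical.

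MHC class II molecules are pairs of an alpha and a beta chain that carry peptides from endosomes to the surface of antigen-presenting cells, where CD4+ T cells read them. The chains assemble on the invariant chain, which is cut away in endosomes by proteases, and the H2-DM protein then exchanges its last fragment for a peptide, while the reductase encoded by Ifi30 opens disulfide bonds of the proteins being digested. In the brain, class II is carried by few cells at rest, mainly macrophages at the borders, and by microglia and infiltrating myeloid cells when they are activated, largely through interferon-gamma, which switches on Ciita. Mice of the C57BL/6 strain make the I-A pair, encoded by H2-Aa and H2-Ab1, but no I-E pair, since the gene for the I-E alpha chain is defective in their haplotype.

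Ifi30 rose 3.28-fold after MCAO and was the only member of the 7 to pass the test. The 4 genes for the class II chains and their chaperone, H2-Aa, H2-Ab1, H2-Eb1 and Cd74, read 0.32 to 0.40 log2 higher in MCAO without passing. H2-DMa and Ciita differed by 0.0047 and 0.011 log2 between MCAO and sham. The test was limma's moderated test over all genes with Benjamini-Hochberg adjustment, and a gene passed at an adjusted p under 0.05. By it 1.12% of all genes were called higher in MCAO, against 1 of the 7 members. All 7 members had a difference above 0, against 47.7% of all genes, and their median difference was 0.33 log2, against −0.0064 over all genes. The 3 MCAO values lay above the 3 sham values for 4 members, Ifi30, H2-Aa, H2-Ab1 and Cd74, and for 8.44% of all genes. The list was chosen with earlier results of these data known, so these shares only describe it.

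**Figure D1:**
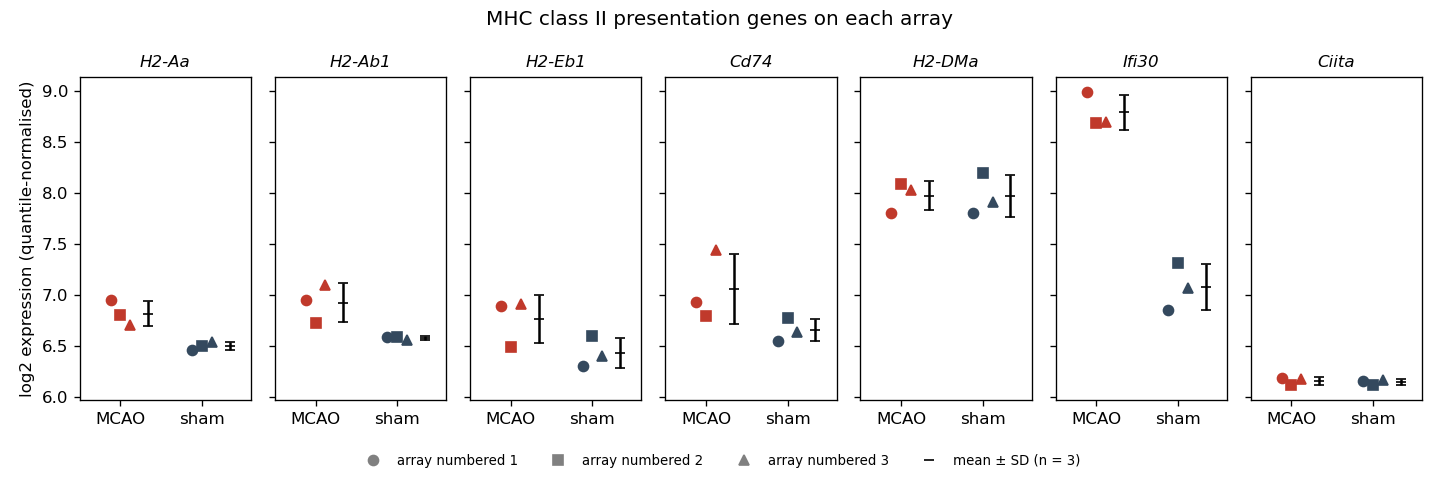
Quantile-normalised log2 expression of each gene on each array, with MCAO left of sham in every panel; symbols mark the sample number and black bars the mean ± SD (n = 3). Ifi30 stands at 8.69 to 8.996 in MCAO and 6.86 to 7.32 in sham, while H2-DMa and Ciita read alike in both groups.

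Samples carry the numbers 1 to 3 in each group, and same-numbered arrays deviated from their group means in the same direction across genes (correlations of 0.77, 0.44 and 0.48 for numbers 1, 2 and 3). Of the pairs with unlike numbers, MCAO 3 and sham 2 also correlated, at 0.29, and the rest ran from −0.59 to 0.027. The labels do not say what the numbers mean, so a pairing is assumed from these same values. A fit with the sample number as a block is given on that assumption where it changes a call. With that block 3 of the 7 members passed, Ifi30, H2-Aa and H2-Ab1, while the share of all genes called higher in MCAO was 4.82%. In a bulk sample, more cells that express a gene and more RNA per cell cannot be told apart.

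The I-A chain genes come first. H2-Aa, which encodes the I-A alpha chain, read 6.96, 6.80 and 6.71 log2 on MCAO arrays 1 to 3, against 6.47, 6.50 and 6.54 on sham arrays 1 to 3. The groups did not overlap, and the MCAO values spread more widely than the sham values. The means were 6.82 ± 0.12 in MCAO and 6.50 ± 0.037 in sham (SD, n = 3 each), a difference of 0.32 ± 0.085 log2 (SE), or 1.25-fold. By limma the adjusted p was 0.199, and the sample number as a block gave 0.0396.

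H2-Ab1, which encodes the I-A beta chain, read 6.95, 6.73 and 7.11 log2 on MCAO arrays 1 to 3, against 6.60, 6.59 and 6.56 on sham arrays 1 to 3. Here too no MCAO array fell among the sham arrays, with MCAO 2 nearest to them. The means were 6.93 ± 0.19 in MCAO and 6.58 ± 0.022 in sham (SD, n = 3 each), which differed by 0.35 ± 0.10 log2 (SE), or 1.27-fold (adjusted p = 0.269 by limma, and 0.0400 with the block).

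H2-Eb1 encodes the I-E beta chain, which in this strain lacks its usual alpha partner. It read 6.90, 6.50 and 6.91 log2 on MCAO arrays 1 to 3, against 6.31, 6.60 and 6.41 on sham arrays 1 to 3. The groups overlapped, because MCAO 2 lay below sham 2. The means of 6.77 ± 0.24 in MCAO and 6.44 ± 0.15 in sham (SD, n = 3 each) differed by 0.33 ± 0.13 log2 (SE), which did not pass by limma without the block (adjusted p = 0.502) or with it (0.149).

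Cd74, whose product guides newly made class II pairs to endosomes and keeps their groove closed on the way, read 6.94, 6.80 and 7.45 log2 on MCAO arrays 1 to 3, against 6.56, 6.78 and 6.65 on sham arrays 1 to 3. MCAO 3 was the highest, and MCAO 2 was only just above sham 2. Its difference, 0.40 ± 0.16 log2 (SE), or 1.32-fold, came next in size after that of Ifi30 with all arrays, but was 0.21 without MCAO 3, below those of H2-Aa, H2-Ab1 and H2-Eb1 (0.38, 0.26 and 0.26). It did not pass by limma (adjusted p = 0.508, and 0.0855 with the block), and the means were 7.06 ± 0.34 in MCAO and 6.66 ± 0.11 in sham (SD, n = 3 each).

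**Figure D2:**
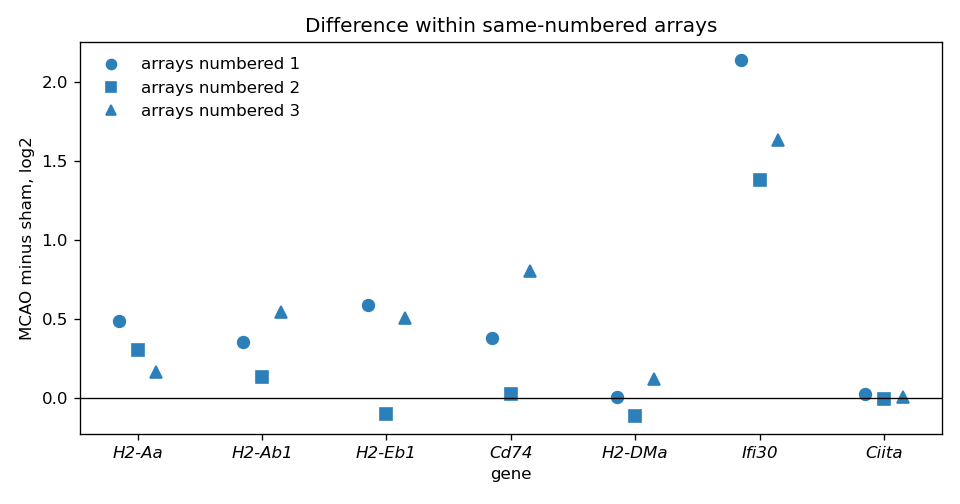
MCAO minus sham on the log2 scale within arrays of the same number, with a symbol for each number and a line at 0. Ifi30 is higher in MCAO by 2.13, 1.38 and 1.63 for numbers 1, 2 and 3, while H2-Eb1 and Cd74 differ by −0.10 and 0.027 for number 2.

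The differences within same-numbered arrays were uneven among the chain genes and Cd74. H2-Aa was higher in MCAO by 0.49, 0.30 and 0.17 log2 for numbers 1, 2 and 3, whereas Cd74 was higher by 0.38, 0.027 and 0.80. H2-Ab1 was higher by 0.36, 0.13 and 0.55, and H2-Eb1 by 0.59 and 0.51 for numbers 1 and 3, with −0.10 for number 2. The order of the 3 numbers thus differed between the brightest probe set of H2-Aa and the other 3 genes, in each of which number 2 gave the smallest difference. Number 2 also gave the smallest difference in every other probe set of H2-Aa, so that order is not shared by the probe sets of the gene. As a mean of the 4 genes on each array, MCAO arrays 1 to 3 read 6.94, 6.71 and 7.04, against 6.48, 6.62 and 6.54 on sham arrays 1 to 3. The MCAO values of that mean all lay above the sham values, with a gap of less than 0.1 log2 between MCAO 2 and sham 2. In sham the means of these 4 genes, 6.44 to 6.66 log2, lay near the median of all probe sets (6.58), and the files give no detection call, so readings this dim may hold background and their folds may be understated.

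Promoters of class II genes carry a conserved set of elements, an X box bound by the RFX complex, whose downstream part binds CREB, and a Y box bound by NF-Y, on which the Ciita product is recruited. Of the 7 genes, 4 had an entry in a RefSeq promoter table (GRCm38.p6, 250 bases before to 50 bases after each start), H2-Aa, H2-Eb1, H2-DMa and Ifi30. Those of H2-Aa (chr17:34287774-34288073, minus strand) and H2-Eb1 (chr17:34305617-34305916, plus strand) are shown 5′ to 3′, since both are chain genes of the same locus with like differences in MCAO. Capitals mark matches to the Y box as ATTGG or CTGATTGG, the X box as G, any 2 bases and then ACNGATG, and the palindrome TGACGTCA, to which CREB binds.
H2-Aa: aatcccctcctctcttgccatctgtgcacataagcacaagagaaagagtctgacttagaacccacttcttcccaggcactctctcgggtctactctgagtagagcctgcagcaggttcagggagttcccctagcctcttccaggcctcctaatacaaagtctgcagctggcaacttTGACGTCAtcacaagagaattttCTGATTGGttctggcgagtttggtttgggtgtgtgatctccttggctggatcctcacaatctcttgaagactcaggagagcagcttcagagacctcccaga
H2-Eb1: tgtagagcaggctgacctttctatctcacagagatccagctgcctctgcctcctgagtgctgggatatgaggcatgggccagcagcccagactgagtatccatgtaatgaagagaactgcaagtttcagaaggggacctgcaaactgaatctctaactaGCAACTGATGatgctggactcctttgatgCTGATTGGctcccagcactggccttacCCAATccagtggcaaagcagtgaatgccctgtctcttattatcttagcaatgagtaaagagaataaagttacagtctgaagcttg

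In H2-Aa the extended Y box CTGATTGG lay at bases −51 to −44 from the annotated start, 15 bases downstream of TGACGTCA. In H2-Eb1 the same 8 letters lay at −62 to −55, 19 bases downstream of the X box match GCAACTGATG, and a further ATTGG lay on the opposite strand at −35 to −31. H2-Aa held no match to the X box letters. Of the windows of H2-DMa, chr17:34125268-34125567 held only an ATTGG, at −198 to −194, and chr17:34122582-34122881 held no match. Both strands were searched, and every CTGATTGG match also holds ATTGG. Of 32851 promoters in the table, 37.4% held ATTGG, 4.1% CTGATTGG, 2.97% the X box letters and 1.79% TGACGTCA. CTGATTGG and TGACGTCA were chosen after the sequences had been seen. A match is a description of the letters and was not tested as a site.

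Ifi30 is shown for contrast, as the member with the clearest rise. Its promoter (chr8:70766614-70766913, minus strand) held none of the 4 motifs, which says only that these letters are not in this window.
Ifi30: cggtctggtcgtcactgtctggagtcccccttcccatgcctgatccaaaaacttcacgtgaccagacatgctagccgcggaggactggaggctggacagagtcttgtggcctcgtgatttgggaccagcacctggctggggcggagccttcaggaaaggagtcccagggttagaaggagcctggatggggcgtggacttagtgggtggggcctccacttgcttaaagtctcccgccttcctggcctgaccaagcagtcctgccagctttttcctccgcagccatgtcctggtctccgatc

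Ifi30 encodes the gamma-interferon-inducible lysosomal thiol reductase, which acts on antigens before class II loading. It read 8.996, 8.69 and 8.70 log2 on MCAO arrays 1 to 3, against 6.86, 7.32 and 7.08 on sham arrays 1 to 3. Every MCAO array was more than 1 log2 unit above every sham array. The means were 8.80 ± 0.17 in MCAO and 7.08 ± 0.23 in sham (SD, n = 3 each), a difference of 1.71 ± 0.14 log2 (SE). The 95% confidence interval of the fold was 2.64 to 4.08, and by limma the adjusted p was 0.00304, the eighth smallest p of all genes.

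H2-DMa, which encodes the alpha chain of the peptide exchange factor, read 7.81, 8.09 and 8.04 log2 on MCAO arrays 1 to 3, against 7.81, 8.20 and 7.92 on sham arrays 1 to 3. The 2 groups ran through the same range. The difference was 0.0047 ± 0.12 log2 (SE; adjusted p = 0.998 by limma), with a 95% confidence interval for the fold of 0.823 to 1.22. H2-DMa was the only member whose mean in sham lay above that of the median gene (7.13 log2).

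Ciita, which encodes the master transactivator of class II genes, read 6.19, 6.12 and 6.18 log2 on MCAO arrays 1 to 3, against 6.16, 6.12 and 6.17 on sham arrays 1 to 3. The values were nearly the same on all 6 arrays and lay below the middle of the array, where the median of all probe sets was 6.58. The difference was 0.011 ± 0.068 log2 (SE; adjusted p = 0.990 by limma), with a 95% confidence interval for the fold of 0.904 to 1.12. A reading this dim cannot be told apart from background, and a change below what the probe set can read would not show.

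The members had 15 probe sets with their symbol alone, and 4 genes had several. All 15 differed upwards in MCAO, and in 7 of them the MCAO values lay above all sham values, against 7.11% of all probe sets with 1 symbol. Tested over all 34958 such probe sets, 1 of the 15 passed by limma, that of Ifi30, against 0.644% of all called higher. H2-Aa differed most between probe sets. Its second-brightest probe set read 6.88, 6.57 and 7.13 log2 on MCAO arrays 1 to 3, against 6.23, 6.00 and 6.34 on sham arrays 1 to 3.

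That is a difference of 0.67 ± 0.15 log2 (SE) for H2-Aa, against 0.32 for the brightest probe set, with an adjusted p of 0.165 by limma and 0.00104 with the block. The other 2 probe sets of H2-Aa read 0.13 and 0.091 log2 higher in MCAO. With the block, the brightest probe sets of H2-Aa and H2-Ab1 did not pass once all probe sets were tested (adjusted p = 0.0672 and 0.0679 by limma). The other probe sets of H2-Ab1 read 0.24 and 0.047 log2 higher, the other of H2-DMa 0.027, and those of Ciita 0.023 and 0.14, none of which passed. The groups did not overlap in the H2-Ab1 probe set at 0.24 or the Ciita probe set at 0.14. That dim Ciita probe set read 5.89, 5.87 and 5.95 log2 on MCAO arrays 1 to 3, against 5.78, 5.77 and 5.74 on sham arrays 1 to 3. The names of all 4 probe sets of H2-Aa, the one with the difference of 0.67 included, and of the brightest of H2-Ab1 end in _x_at or _s_at, a mark of probe sets that may bind transcripts of related genes.

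**Figure D3:**
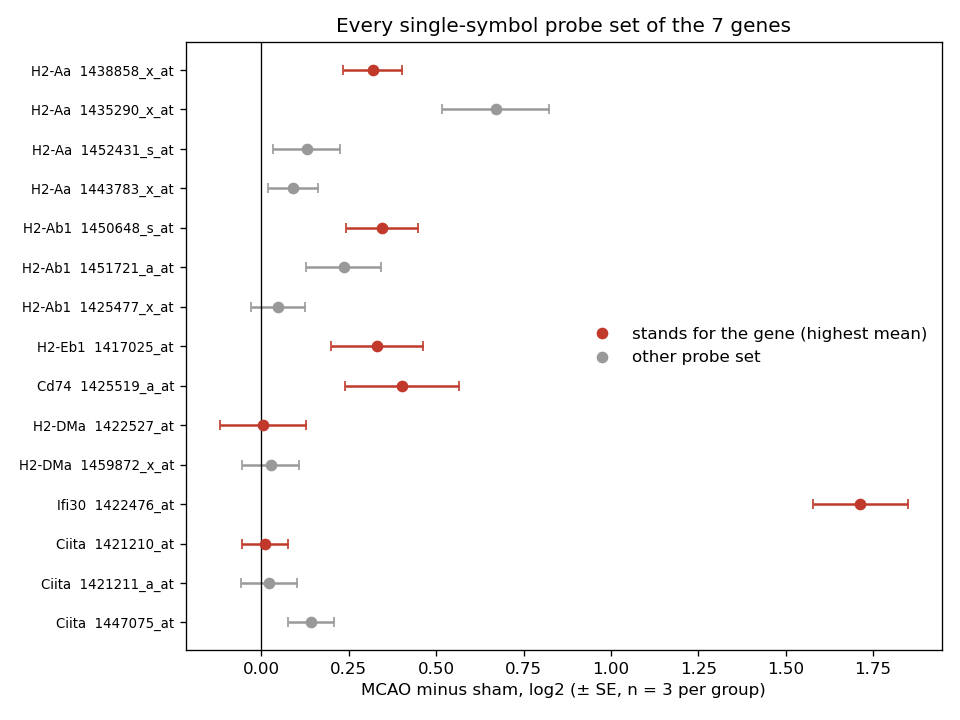
MCAO minus sham on the log2 scale (point) with limma's SE (bar, n = 3 per group) for every probe set of the 7 genes; red marks the probe set that stands for the gene. The 4 probe sets of H2-Aa run from 0.091 to 0.67, and that of Ifi30 stands at 1.71.

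The rest of the pathway was read through 41 genes in 4 lists by role, of which 39 were measured. Of these, 3 rose and 36 did not pass by limma, against 1.12% of all genes called higher. The 3 were Lgmn, Irf8 and Cd44. Without sham 3 the count was 1, that of Cd44. When the sample number entered as a block 11 rose and 1 fell, against 4.82% of all genes called higher and 1.3% called lower with it. Their median difference was 0.036 log2, against −0.0064 over all genes, and 27 of the 39 were higher in MCAO.

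Among 11 measured genes of peptide loading and processing, 1 rose and 10 did not pass, and with the block 5 rose. The 5 were the protease genes Lgmn, Ctsd, Ctsl, Ctsb and Ctss, while Sppl2a, which encodes an endosomal protease that cuts the membrane stub of the invariant chain, differed by 0.030 log2 (adjusted p = 0.988 by limma, and 0.903 with the block). Lgmn, which encodes the asparaginyl endopeptidase that cuts antigens and the invariant chain, read 9.50, 9.02 and 9.11 log2 on MCAO arrays 1 to 3, against 8.12, 8.12 and 8.21 on sham arrays 1 to 3. All MCAO arrays were far above the sham arrays, by 1.06 ± 0.13 log2 on average (SE; adjusted p = 0.0108 by limma, and 0.0734 without sham 3), or 2.09-fold. Ctsd, an aspartic protease gene, was 0.89 log2 higher (adjusted p = 0.0578 by limma, and 0.00462 with the block). Its adjusted p by limma was 0.0485 without MCAO 1, and 0.0682 to 0.200 when any other single array was left out.

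Ctss, the cysteine protease gene whose product makes the last cut of the invariant chain, read 11.65, 10.87 and 10.94 log2 on MCAO arrays 1 to 3, against 10.41, 10.49 and 10.49 on sham arrays 1 to 3. The groups did not overlap, and MCAO 1 stood well above the other MCAO arrays. The difference was 0.69 ± 0.19 log2 (SE), with an adjusted p of 0.224 by limma and 0.0159 with the block, and was 0.45 without MCAO 1. Ctsl and Ctsb, 2 further cathepsin genes, were 0.82 and 0.73 log2 higher (adjusted p = 0.0632 and 0.0939 by limma, and 0.00143 and 0.00164 with the block).

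The loading genes beside H2-DMa, and the further class II chain genes of the same list, did not pass. H2-DMb2, a beta chain gene of the exchange factor, differed by −0.016 log2, and H2-Oa and H2-Ob, which encode its inhibitor, by 0.060 and −0.019 log2. H2-Eb2, a further beta chain gene, differed by 0.036 log2. H2-Ea, the I-E alpha chain gene that C57BL/6 mice do not express, read 7.29, 6.94 and 7.25 log2 on MCAO arrays 1 to 3, against 7.54, 7.34 and 7.17 on sham arrays 1 to 3. The brightest H2-Ea probe set thus gave readings near 7, with overlapping groups, though this strain does not express the gene. The other H2-Ea probe sets were dimmer, with means of 5.82 and 5.41 log2 in MCAO and 5.71 and 5.41 in sham. H2-DMb1 was not matched to a probe set with its symbol alone.

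Among 16 measured genes of transcription and interferon-gamma input, 1 rose and 15 did not pass. Irf8, a transcription factor gene of microglia and other myeloid cells, read 7.26, 7.16 and 7.43 log2 on MCAO arrays 1 to 3, against 6.71, 6.76 and 6.82 on sham arrays 1 to 3. The groups did not overlap, and the difference was 0.52 ± 0.090 log2 (SE; adjusted p = 0.0448 by limma). That call was lost whichever array was left out, with adjusted p from 0.0574 without MCAO 2 to 0.180 without sham 3. Spi1, which encodes the myeloid factor PU.1, was 0.35 log2 higher (adjusted p = 0.268 by limma, and 0.0221 with the block).

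Genes of the complexes on which Ciita acts did not pass. Rfx5, a subunit gene of the X box complex, read 7.82, 7.88 and 8.11 log2 on MCAO arrays 1 to 3, against 7.82, 8.11 and 7.92 on sham arrays 1 to 3, with overlapping groups and a difference of −0.013 log2. Rfxap and Rfxank, its partners, differed by −0.047 and −0.013 log2, and the NF-Y subunit genes Nfya, Nfyb and Nfyc by 0.023, −0.14 and 0.079 log2. Ifng, the gene of interferon-gamma itself, read 5.66 to 5.80 log2 in MCAO and 5.69 to 5.72 in sham. Its receptor genes Ifngr1 and Ifngr2 differed by 0.20 and 0.15 log2, and none of these passed.

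Among 7 genes of costimulation and surface turnover none passed by limma without the block. Cd86, a costimulatory ligand gene for T cells, read 7.26, 6.80 and 6.87 log2 on MCAO arrays 1 to 3, against 6.40, 6.43 and 6.41 on sham arrays 1 to 3. The sham arrays were almost level and every MCAO array lay above them. The difference was 0.57 ± 0.12 log2 (SE; adjusted p = 0.0967 by limma, and 0.00500 with the block). Cd83, whose product holds class II at the surface of dendritic cells, was 0.37 log2 higher (0.156, and 0.0279 with the block). Marchf1, which encodes a ubiquitin ligase that removes class II from the surface, differed by −0.28 log2 (0.191, and 0.0419 with the block), and Cd40 and Cd80 by 0.0002 and 0.049 log2.

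The Cd74 product also serves as a surface receptor for the cytokine MIF together with CD44 or CXCR4. Of 5 genes of this role 1 rose, Cd44, which read 8.43, 8.07 and 8.61 log2 on MCAO arrays 1 to 3, against 6.42, 6.52 and 6.26 on sham arrays 1 to 3. The difference was 1.97 ± 0.14 log2 (SE; adjusted p = 0.00304 by limma), or 3.92-fold, and averaging its 4 probe sets gave 1.15 log2 (0.00357). Cxcr4 was 0.34 log2 higher (0.305, and 0.0322 with the block). The ligand genes Mif and Ddt differed by 0.051 and 0.052 log2 and did not pass.

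**Figure D4:**
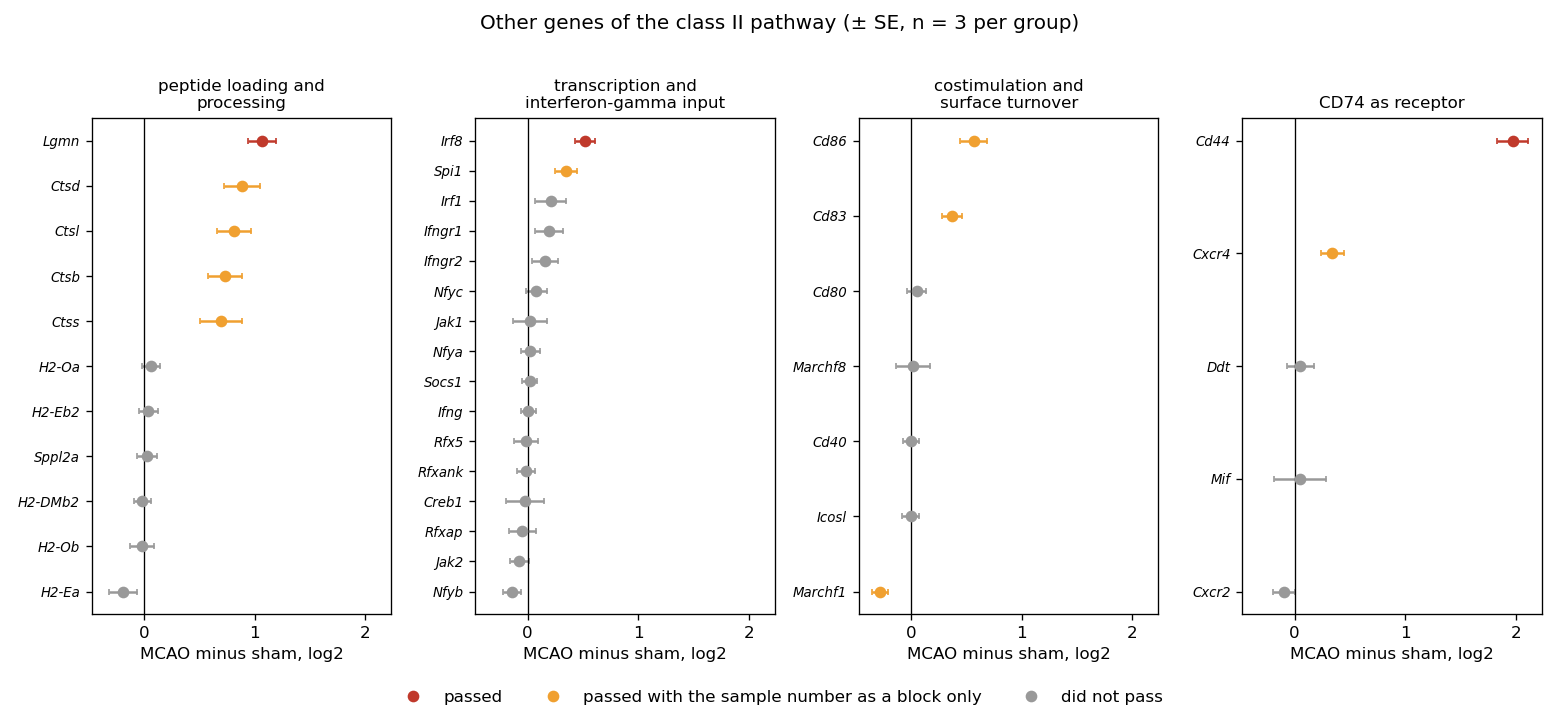
MCAO minus sham on the log2 scale (point) with limma's SE (bar, n = 3 per group) for the 39 other genes of the pathway, in 4 panels by role. Lgmn, Irf8 and Cd44 passed (red), 9 more passed with the sample number as a block only (orange), and the rest did not pass (grey).

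Markers of the cells that could carry class II were read beside the members. Of all genes 1.12% were called higher, and 4.82% with the block. Of 9 microglial markers 2 rose, Fcrls by 1.58 and Olfml3 by 1.23 log2 (6 with the block, among them Cx3cr1 and Tmem119), and the list's mean level ran from 8.33 to 8.69 on MCAO arrays and 7.88 to 7.93 on sham arrays. P2ry12, Siglech and Sall1 differed by 0.15, 0.16 and 0.29 log2 and did not pass with or without the block. Of 8 markers of border macrophages 2 rose, Mrc1 by 0.96 and F13a1 by 0.62 log2 (3 with the block, which added Stab1), with list means of 6.47 to 6.64 in MCAO and 6.19 to 6.29 in sham. In the same list Cd163 differed by −0.13 log2, with all MCAO values below the sham values, and Lyve1 by −0.024, and neither passed. Of 5 monocyte markers 1 rose, Plac8, by 0.64 log2 (2 with the block, which added Chil3, 0.45 log2 higher), with list means of 6.48 to 6.61 in MCAO and 6.26 to 6.42 in sham. The other monocyte markers Ccr2, Ms4a4c and F10 differed by 0.039, 0.11 and 0.0010 log2 and passed neither way. Olfml3 lost its call without MCAO 2, MCAO 3 or sham 3 (adjusted p = 0.0683, 0.0896 and 0.0892 by limma). Without MCAO 3, sham 1, sham 2 or sham 3 the calls of F13a1 (0.0896, 0.0527, 0.0637 and 0.122) and Plac8 (0.132, 0.0879, 0.108 and 0.180) were lost. The part of cell numbers in the members' differences was not tested.

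Markers of dendritic cells, B cells and T cells did not pass. Of 8 dendritic cell markers, 5 B cell markers and 6 T cell markers none was called by limma, with or without the block. The dendritic list had means of 6.25 to 6.43 in MCAO and 6.26 to 6.35 in sham, and its smallest p-values belonged to Flt3 (−0.12 log2) and Cd209a (0.086). The B cell list had means of 6.16 to 6.31 in MCAO and 6.13 to 6.22 in sham, led by Cd79b (0.22) and Pax5 (−0.13). The T cell list had means of 6.68 to 6.86 in MCAO and 6.64 to 6.89 in sham, led by Cd3g (0.14) and Cd8b1 (−0.11). In sham 0 of the 8 dendritic, 0 of the 5 B cell and 1 of the 6 T cell markers (Cd4) lay above the median gene.

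All 10 measured markers of the subventricular zone lay above the median gene in sham, and 0 of them passed by limma without the block. Gfap, a filament gene of astrocytes and neural stem cells, read 9.91, 11.63 and 11.96 log2 on MCAO arrays 1 to 3, against 7.29, 9.13 and 9.02 on sham arrays 1 to 3. All MCAO values were above the sham values, and within each group the array numbered 1 was lowest. The difference was 2.69 ± 0.63 log2 (SE; adjusted p = 0.140 by limma, and 5.62e-07 with the block). For Gfap the adjusted p by limma was 0.0239 without MCAO 1, and 0.197 to 0.412 when any other single array was left out. Slc1a3, an astrocytic glutamate transporter gene, was 0.44 log2 higher (0.697, and 0.0101 with the block), and Nes, an intermediate filament gene of progenitors, 0.35 (0.575). The part of these cells in the members' differences was not tested.

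Genes whose pattern over the 6 arrays was most like that of a member were found by the root mean square (RMS) difference of log2 values, each gene centred on its own mean. Nearest to Ifi30 were A2m (0.10 log2), a protease inhibitor gene, Fcrls (0.13), and Ly86 (0.14), a myeloid gene whose product binds a Toll-like receptor relative. Nearest to H2-Aa were Fgl2 (0.011 log2), Cenpi (0.028) and Cd36 (0.035), and nearest to H2-Ab1 were Ralb (0.020), Inpp5d (0.028) and Mtap (0.043). Nearest to H2-Eb1 were Hhex (0.029), Slfn2 (0.058) and Cldn5 (0.062), and nearest to Cd74 were Nes (0.081), Myo1c (0.086) and Ltbr (0.095). Ciita was nearest to Coro2a (0.0079), Cst12 (0.0091) and Chrna9 (0.010), and H2-DMa to Ftsj1 (0.019), Rpp21 (0.020) and Qtrt1 (0.023), patterns with hardly any difference between the groups.

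Among the members themselves, H2-Ab1 and H2-Eb1 were the closest pair, at an RMS difference of 0.0995 log2, followed by H2-Ab1 and Cd74 at 0.13. H2-Aa lay 0.15 from H2-Ab1, its partner in the I-A pair, 0.169 from H2-Eb1 and 0.26 from Cd74. It lay 0.170 from Ciita, which hardly differed between the groups. These distances rest on the brightest probe set of each gene. Ifi30 lay at least 0.70 from every other member. The measure counts the size of the MCAO minus sham difference, so this distance largely restates the larger rise of Ifi30. With 6 arrays and so many genes, near matches of this size are a description of these arrays.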

How the data were processed

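Biotin-labelled total RNA was measured on 1-colour arrays. The authors deposited log2 values for 45101 probe sets. The sources used here do not give the background correction, probe summary and normalization, and compression of low values is possible. Quantile normalization was added, since 90th percentiles ran from 8.85 to 9.06 between arrays. Of the probe sets, 34958 carry 1 symbol, 932 several and 9211 none. Each of 18194 genes was read by its single-symbol probe set with the highest mean over 6 arrays, and all members kept their symbols in RefSeq. MCAO was compared with sham in limma 3.58.1 (R 4.3.3; lmFit, eBayes, 2-sided, Benjamini-Hochberg over all genes), tested on simulated data. The number of arrays limits the precision. Arrays correlated at 0.975 to 0.992, and the arrays numbered 1 stood apart in both groups. The labels do not say what the sample numbers mean. They were taken as pairing the arrays because deviations of same-numbered arrays correlated above 0.1 in every pair. That rule was read from these same values, and MCAO 3 and sham 2 met it too (0.29). Lists hold 41 pathway genes and 7 sets of cell type markers. The members and lists were chosen with earlier results of these data known. Named are the 7 members, the 2 genes with the smallest p of each list, 5 fixed genes (H2-DMb1, Ctss, Rfx5, Spi1, Cd86) and the 3 genes most like each member. The other pathway genes were named after their values were seen, to show the list. So were the markers Cd163, Lyve1, Stab1, Cx3cr1, Tmem119, P2ry12, Siglech, Sall1, Ccr2, Ms4a4c, F10, Cd4 and Slc1a3. Alternatives covered normalization, the block, probe sets, variance, a filter on dim genes and left-out arrays.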

Additional observations from a re-analysis of the deposited data

How the results depend on the processing

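Ifi30 passed by limma in all 15 alternatives (1.503 to 1.83 log2, adjusted p from 7.21e-07 to 0.0285). H2-Aa, H2-Ab1, H2-Eb1 and Cd74 were higher in MCAO in all 14 alternatives that kept them. The block, intensity trend and robust variance fits repeat the main difference, so they add nothing on direction. The block on deposited values likewise repeats the deposited difference. H2-Aa passed with the replicate block alone, while on the values as deposited it did not; H2-Ab1 passed with the block on both scales, and H2-Eb1 and Cd74 in none. The number of members called was 1, but 3 with the block and 2 with block and deposited values together. Leaving out any array, or both arrays numbered 1, gave 1. The members' median difference of 0.33 log2 ran from 0.26 to 0.45 with 1 array left out, and was 0.86 when the genes below the median level were left out, where just H2-DMa and Ifi30 remained. Of the other pathway genes 3 were called, against 12 with the block, 11 with block and deposited values together, 6 with an intensity trend, 5 without both arrays numbered 1, and 1 to 4 with 1 array left out (1 without sham 3, where Lgmn lost its call at adjusted p = 0.0734). The share of all genes called higher was 1.12% in the main fit, 4.82% with the block and 4.2% with block and deposited values together. It was 1.42% with an intensity trend, 1.15% without both arrays numbered 1, and 0.242% to 1.03% with 1 array left out. The causes of the changes in count were not tested. Ciita and H2-DMa passed in no alternative and changed sign in several. Among differences above 0.3 log2 that moved by over 1.5 times, Nes was 0.21 without MCAO 3 and 0.081 with the mean of probe sets, Cd74 was 0.21 without MCAO 3, Ctss 0.45 without MCAO 1 and 0.42 without both arrays numbered 1, H2-Ab1 0.21 and Cd44 1.15 with the mean of probe sets, and H2-Eb1 0.20 without both arrays numbered 1. Dim readings limit what can be said of Ciita, the chain genes and Cd74.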
